A study of Mus musculus with 92 samples.

Results

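The myeloid C-type lectin receptors are 8 genes, Clec4a2, Clec12a, Clec5a, Clec4d, Clec4e, Clec7a, Clec4a1 and Clec4a3, taken by name from the 23956 genes of the expression table. All 8 had a row, and 6 of the 8 passed the filter on detection, that is, they had a value above 0 in no less than 25% of a sort gate's cells. C-type lectin receptors are membrane proteins of innate immune cells that bind sugars, lipids or crystals from microbes and damaged cells. Some carry an inhibitory motif that recruits the phosphatase SHP-1 (gene Ptpn6). Others signal through the adaptors Fc receptor gamma chain (Fcer1g) or DAP12 (Tyrobp) to the kinase SYK and the scaffold CARD9. In bone marrow they are known from neutrophils, monocytes and their precursors.

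The cells were sorted from C57BL/6 mice that carry the Gfi1-R412X allele on both chromosomes, a premature stop in GFI1, a transcriptional repressor of granulocyte development. Marrow was enriched for CD117 on beads, sorted, and captured cell by cell on the Fluidigm C1. There were 45 cells from the GMP gate, a term usually read as granulocyte-monocyte progenitor, and 47 from the CD11b+ GMP-P gate, and 0 cells of another genotype, so nothing here measures an effect of the mutation. The deposited annotation names 9 states. Of the GMP cells, 5 were Multi-Lin, 3 cMoP, 24 Mono, 5 MP, 6 Gran-1 and 2 Gran-2. Of the CD11b+ GMP-P cells, 1 was Multi-Lin, 1 Mono, 4 Gran-1, 20 Gran-2, 3 Myelo-1, 15 Myelo-2 and 3 Myelo-4. State names are used as the annotation gives them. The sources used here do not say by which method, and these genes could have entered it.

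Each gate is a single set of cells with no named animals. All cell names of a gate share a prefix that differs between the gates, and its meaning is not given. Gate, animal, capture and any batch that the prefix marks cannot be told apart, and no test was made. Values are TPM, a transcript abundance scaled by gene length and by the cell's total, or means of log2(TPM + 1), with the SD of the cells, which is no error between animals. A difference of at least 1 in mean log2 (2-fold) is called higher or lower. TPM keeps no read depth. The number of genes detected stands in for it, with a median of 5611 in GMP cells (2775 to 6611) and 4143 in CD11b+ GMP-P cells (1992 to 5743). Itgam, which encodes CD11b, was detected in 38 of 47 CD11b+ GMP-P and 17 of 45 GMP cells, and Cd34 in 16 and 39. Gfi1 had a mean log2 of 4.44 ± 3.43 in CD11b+ GMP-P and 3.78 ± 3.17 in GMP cells; a transcript level does not check a stop codon.

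All 8 genes lie on mouse chromosome 6. Clec4a1 and Clec4a3 are next to each other in the RefSeq order of coding genes, as are Clec4d and Clec4e. Clec4a4 and Clec4b1 lie between Clec4a3 and Clec4a2, and Clec4b2 and Clec4n between Clec4a2 and Clec4d. Clec12a and Clec7a share a second cluster, with 4 other genes between them. Clec5a stands apart, with 627 coding genes before Clec4a1. The 250 bases before the start site are shown for 4 receptors. The results turn on Clec12a, Clec5a and Clec4a2, which were found together in most CD11b+ GMP-P cells, and on Clec4e, which was found in all 3 cMoP cells. The sequences are from RefSeq on GRCm38.p6, 5′ to 3′ on the strand of the gene. Capitals mark matches, on either strand, to core motifs of myeloid factors: GAGGAA for PU.1, TTGCNNAA for C/EBP and AAATCA for GFI1. The window is chr6:129349994-129350243 on the plus strand for Clec12a and chr6:40585806-40586055 on the minus strand for Clec5a. It is chr6:123122440-123122689 on the plus strand for Clec4a2 and chr6:123289872-123290121 on the minus strand for Clec4e.
Clec12a: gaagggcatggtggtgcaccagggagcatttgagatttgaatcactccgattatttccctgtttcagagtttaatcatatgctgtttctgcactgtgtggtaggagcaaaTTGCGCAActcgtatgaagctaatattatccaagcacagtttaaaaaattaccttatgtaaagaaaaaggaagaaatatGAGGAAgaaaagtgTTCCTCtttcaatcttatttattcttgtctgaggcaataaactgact
Clec5a: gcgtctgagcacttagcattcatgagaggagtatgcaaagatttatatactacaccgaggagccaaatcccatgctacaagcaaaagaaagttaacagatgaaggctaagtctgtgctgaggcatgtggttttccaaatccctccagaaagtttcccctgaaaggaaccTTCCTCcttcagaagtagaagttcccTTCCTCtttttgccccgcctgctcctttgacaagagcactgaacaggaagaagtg
Clec4a2: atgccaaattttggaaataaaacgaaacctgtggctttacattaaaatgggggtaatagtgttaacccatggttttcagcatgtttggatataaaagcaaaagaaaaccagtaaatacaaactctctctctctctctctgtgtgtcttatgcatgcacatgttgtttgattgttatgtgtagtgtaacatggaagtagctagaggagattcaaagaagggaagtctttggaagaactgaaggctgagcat
Clec4e: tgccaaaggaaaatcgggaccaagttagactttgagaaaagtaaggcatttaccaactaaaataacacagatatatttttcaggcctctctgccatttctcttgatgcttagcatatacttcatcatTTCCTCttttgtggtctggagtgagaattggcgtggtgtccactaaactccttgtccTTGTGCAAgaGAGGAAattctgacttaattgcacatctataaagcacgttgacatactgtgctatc

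The Clec12a window held 2 PU.1 core matches and 1 C/EBP core match, the Clec5a window 2 PU.1 matches, and the Clec4e window 2 PU.1 matches and 1 C/EBP match. The Clec4a2 window held none of the 3 motifs. All 8 receptors matched the promoter table, with 10 start sites. At the first start site of each, 6 of 8 held the PU.1 core, against 23.3% of 32851 mouse windows of the same length. The C/EBP core stood in 2 of 8, against 9.56% of windows, and the GFI1 core in 0 of 8, against 12.4%. A match describes letters in this window and is no evidence of binding.

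Among the inhibitory receptors, Clec4a2 separated the gates most. Clec4a2 encodes DCIR, a receptor with an inhibitory motif. It had a median of 0 TPM in GMP cells (0 to 485) and 194 TPM in CD11b+ GMP-P cells (0 to 1043). In GMP 22 of 45 cells were above 0 (48.9%, exact Clopper-Pearson 95% interval 33.7 to 64.2), and in CD11b+ GMP-P 46 of 47 were (97.9%, 88.7 to 99.9). These intervals, here and below, cover counting error only. The groups overlap, but in GMP only 15 cells passed 1 TPM, against 44 in CD11b+ GMP-P. The mean log2 was 1.91 ± 2.92 (SD, 45 cells) in GMP and 6.99 ± 2.40 (47 cells) in CD11b+ GMP-P, a difference of 5.08. Of the 7803 genes compared, 2.72% were higher in CD11b+ GMP-P and 39% were lower, with a median difference of -0.74, and the median moved to -0.32 when cells were scaled to equal medians of widely detected genes. Clec4a2 stood 5.81 above the median of -0.74, and its difference lay between 2.78 and 6.92 over 6 other ways of processing. Among the 6, leaving out the filter on detection cannot change it.

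Clec12a, which encodes MICL, an inhibitory receptor for crystals of uric acid on granulocytes and monocytes, was high in both gates. Its median was 677 TPM in GMP cells (0 to 2277) and 949 TPM in CD11b+ GMP-P cells (0 to 2994), detected in 44 of 45 and 46 of 47 cells. The gates overlap over nearly the whole range. The mean log2 was 8.64 ± 2.73 in GMP and 8.98 ± 2.85 in CD11b+ GMP-P, a difference of 0.35, less than the SD of the cells. It passed the size rule at 2.12 with equal medians, at 1.73 in 22 and 22 cells matched on genes detected, and at 1.28 without the Myelo states.

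Of the activating receptors, Clec5a, the DAP12-coupled receptor MDL-1, was higher in CD11b+ GMP-P. Its median was 46.4 TPM in GMP cells (0 to 356) and 133 TPM in CD11b+ GMP-P cells (0 to 927), with 35 of 45 and 44 of 47 cells above 0. The mean log2 was 4.27 ± 3.11 in GMP and 6.54 ± 2.48 in CD11b+ GMP-P, a difference of 2.27. The remaining activating receptors were lower, as were 39% of all genes compared. Clec7a, the beta-glucan receptor dectin-1, had a median of 1.61 TPM in GMP cells (0 to 682) and 0 TPM in CD11b+ GMP-P cells (0 to 52.9). It was detected in 27 of 45 and 9 of 47 cells, and the difference of mean log2 was -2.28. Clec4d and Clec4e encode MCL and Mincle, partner receptors for mycobacterial cord factor that signal through the Fc receptor gamma chain. Clec4d was above 0 in 19 of 45 GMP cells (up to 102 TPM) and 2 of 47 CD11b+ GMP-P cells (up to 41.4 TPM), a difference of -1.48. Clec4e was above 0 in 15 GMP cells (up to 315 TPM) and 5 CD11b+ GMP-P cells (up to 121 TPM), a difference of -1.35. Their medians were 0 TPM in both gates, and values overlap. With a pseudocount of 10 both fell inside the size rule (-0.58 and -0.66), as Clec4e did with equal medians (-0.92).

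Thus 2 of 6 receptors compared were higher in CD11b+ GMP-P, against 2.72% of all genes. Lower were 3 of 6, against 39%, a share near that of all genes at this setting only. In matched cells and without the Myelo states 3 of 6 were lower too, against 12.8% and 17.8%. Clec7a, Clec4d and Clec4e passed the filter on detection only through GMP (19.1%, 4.26% and 10.6% of CD11b+ GMP-P cells above 0). Such a pass favours a lower call, so the count of those lower is a description. Relative to the median of all genes, Clec7a stood at -1.54, Clec4d at -0.75 and Clec4e at -0.61. The median over the 6 was -0.50. The gates also differ in what else they hold: 14 monocyte marker genes summed to a median of 7926 TPM in GMP (14.8 to 18599) and 4283 TPM in CD11b+ GMP-P (197 to 17697), with 12 of 14 above 0 in either and Fn1 among those at 0. Gene by gene, 9 of the 11 compared were lower in CD11b+ GMP-P and 0 higher. The 17 granulocyte marker genes, all above 0 in each gate, summed to a median of 50845 TPM (444 to 191423) and 234136 TPM (10282 to 602717), with 10 of the 17 higher and 5 lower. The part of this in the receptor differences was not tested.

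**Figure D1:**
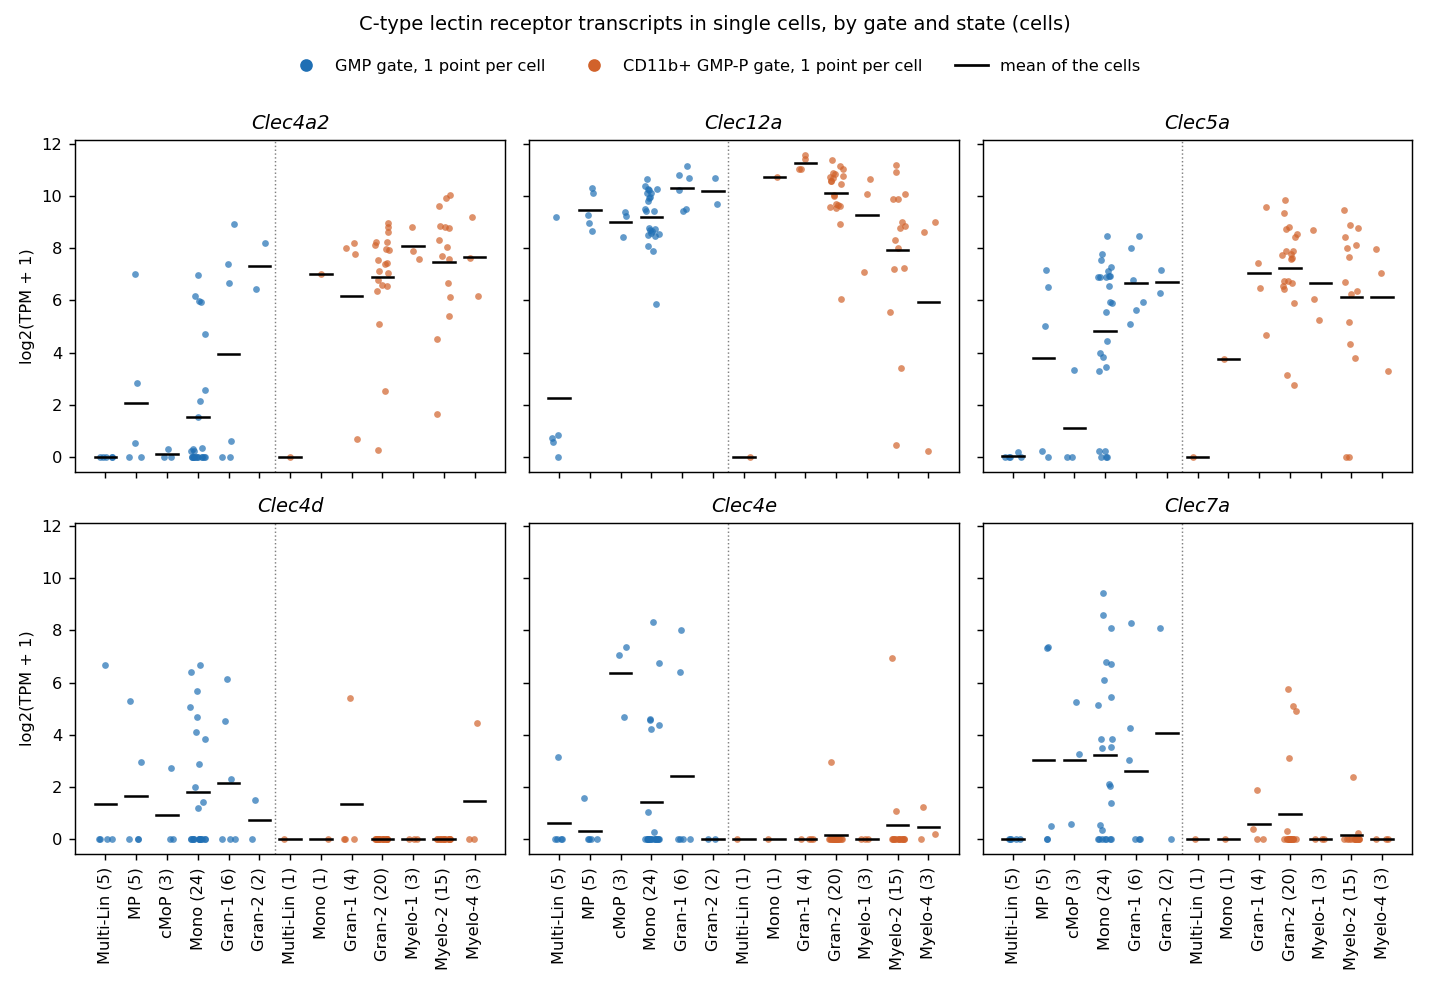
Each point is the log2(TPM + 1) of a receptor in 1 cell, by gate (blue GMP, orange CD11b+ GMP-P) and state with the number of cells, and bars are means. Clec4a2 is under 1 TPM in most Mono and cMoP cells. Its mean log2 is 7.47 in Myelo-2 and, in 3 cells each, 8.09 in Myelo-1 and 7.66 in Myelo-4. Clec12a is near 0 in 5 of the 6 Multi-Lin cells, and Clec4d, Clec4e and Clec7a sit mostly at 0 in CD11b+ GMP-P.

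The DCIR relatives Clec4a1 and Clec4a3 were almost absent. Clec4a1 was above 0 in 1 GMP cell, a Mono cell at 377 TPM, and 1 CD11b+ GMP-P cell, a Gran-2 cell at 56.8 TPM. Clec4a3 was at 0 in all 92 cells. The exact 95% interval for the share of cells with a value above 0 ends at 7.87% for 0 of 45 GMP cells and 7.55% for 0 of 47 CD11b+ GMP-P cells. It covers the counting of cells, not transcripts that were missed: Ptprc and Hprt, which blood cells are known to express, were at 0 in 15 and 10 of the 92 cells. In the reference transcripts Clec4a2 shared 0 of its 50-base stretches with Clec4a1 or Clec4a3. It shared 3.85% with Clec4a4 and 2.30% with Clec4b1, so reads could be split between it and those 2 neighbours, and its level is uncertain to that extent.

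Monocytic and granulocytic cells were set side by side within the GMP gate, 24 Mono against 6 Gran-1 cells. By the size rule 0 of 6 receptors were higher in Mono, where 21% of 8601 genes were, and 3 of 6 were higher in Gran-1, where 13.8% were. The 3 were Clec4a2, Clec5a and Clec12a, and the median of all genes was 0.16. Of 12 monocyte marker genes compared, 9 were higher in Mono and 0 lower, with a median difference of 2.001. All 14 monocyte genes summed to a median of 10344 TPM in Mono (342 to 18599) and 4142 TPM in Gran-1 (3612 to 7050), with 12 of 14 above 0 in each and Fn1 among those at 0. Most of that sum was Ly6c2, with a median of 9220 TPM in Mono and 4034 TPM in Gran-1, and 7277 TPM in Gran-2 of CD11b+ GMP-P. The granulocyte genes, all 17 above 0 in each, summed to a median of 50324 TPM in Mono (23000 to 85411) and 73530 TPM in Gran-1 (41312 to 83484). So Mono cells, too, carried granule transcripts.

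Clec4a2 in Gran-1 of GMP was at 0, 0, 0.53, 102, 168 and 485 TPM, and in Mono at a median of 0.095 TPM (0 to 125). Only 3 of 6 Gran-1 cells and 8 of 24 Mono cells passed 1 TPM, so the states overlap. The means of log2 were 3.94 ± 4.16 in Gran-1 and 1.55 ± 2.43 in Mono, a Mono minus Gran-1 difference of -2.39, less than the SD of Gran-1. Clec5a in Gran-1 was at 33.4, 48.7, 60.3, 109, 253 and 356 TPM, and in Mono at a median of 60.02 TPM (0 to 354). All 6 Gran-1 cells held it, and 3 of 24 Mono cells were at 0. The difference was -1.81 in mean log2 and -0.80 by mean TPM, which is inside the size rule. Clec12a in Gran-1 was at 677, 727, 1200, 1648, 1781 and 2277 TPM, and in Mono at a median of 691 TPM (57.9 to 1580). No cell of either state lacked it. The difference was -1.10, and -0.93 by mean TPM and -0.82 in 5 and 5 cells matched on genes detected, both inside the rule.

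Of the 6 receptors compared, Clec7a alone had a higher mean log2 in Mono than in Gran-1. It was above 0 in 17 of 24 Mono cells (70.8%, 48.9 to 87.4), with a median of 6.79 TPM (0 to 682). It was above 0 in 3 of 6 Gran-1 cells, at 7.31, 18.4 and 308 TPM. The difference of 0.63 is inside the size rule; it was 2.79 in the 5 and 5 matched cells, 0.31 with a pseudocount of 10 and 0.11 without Gran-1 cell 25. Clec4d (-0.33) and Clec4e (-0.98) were also inside the rule. Clec4e passed it, higher in Gran-1, at -1.40 by mean TPM, -1.76 in matched cells and -1.46 without Gran-1 cell 25. It was above 0 in 8 of 24 Mono cells and in 2 of 6 Gran-1 cells, at 84.2 and 260 TPM, the same share of 33.3%. In the cMoP cells, whose abbreviation is that of the common monocyte progenitor, Clec4e stood at 24.9, 133 and 162 TPM, above 0 in all 3. The same cells had Clec4a2 at 0, 0 and 0.24 TPM, Clec5a at 0, 0 and 9.17 TPM, and Clec12a at 343, 594 and 666 TPM. Clec7a stood at 0.52, 8.65 and 37.7 TPM in them, and Clec4d at 0, 0 and 5.73 TPM. The cMoP cells thus held Clec4e, Clec12a and some Clec7a, with little Clec4a2, Clec4d or Clec5a, in 3 cells.

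The largest granulocytic state was in the other gate, where state and gate cannot be told apart: 20 Gran-2 cells of CD11b+ GMP-P against the 24 Mono cells of GMP. Here 2 of 6 receptors were higher in Gran-2, against 5.42% of 8437 genes, and 3 of 6 were lower, against 27.4%. The median of all genes was -0.45. Of the lower, Clec4d (above 0 in 0% of Gran-2 and 45.8% of Mono cells) and Clec4e (5% and 33.3%) passed the filter only through Mono. Such a pass favours a lower call, so the count of those lower is a description. Clec4a2 in Gran-2 had a median of 168 TPM (0.22 to 504), above 0 in 20 of 20 cells, a difference of 5.33 from Mono. Clec5a in Gran-2 had a median of 204 TPM (5.85 to 927), also in 20 of 20, a difference of 2.42. Both overlap with Mono. Clec12a in Gran-2 had a median of 1459 TPM (66.2 to 2666), a difference of 0.91, which passed the rule at 1.42 with equal medians and 1.56 in matched cells.

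In the same comparison Clec4d was listed at 0 in all 20 Gran-2 cells, for which the exact 95% interval of the share above 0 ends at 16.8%, and was above 0 in 11 of 24 Mono cells, up to 101 TPM. Clec7a was above 0 in 5 of 20 Gran-2 cells, up to 52.9 TPM, a difference of -2.27. Clec4e was above 0 in 1 of 20, at 6.87 TPM, a difference of -1.28, which was -0.42 in matched cells and -0.60 with a pseudocount of 10, both inside the rule, and -4.04 by mean TPM. With a pseudocount of 10 Clec4d was inside it too (-0.72). The 2 Gran-2 cells of the GMP gate had Clec4a2 at 86.4 and 289 TPM, Clec12a at 827 and 1637 TPM, and Clec5a at 75.8 and 143 TPM. Those values lie within the range of the Gran-2 cells of the other gate. Clec7a was 0 and 275 TPM in them, the second above every Gran-2 cell of CD11b+ GMP-P.

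**Figure D2:**
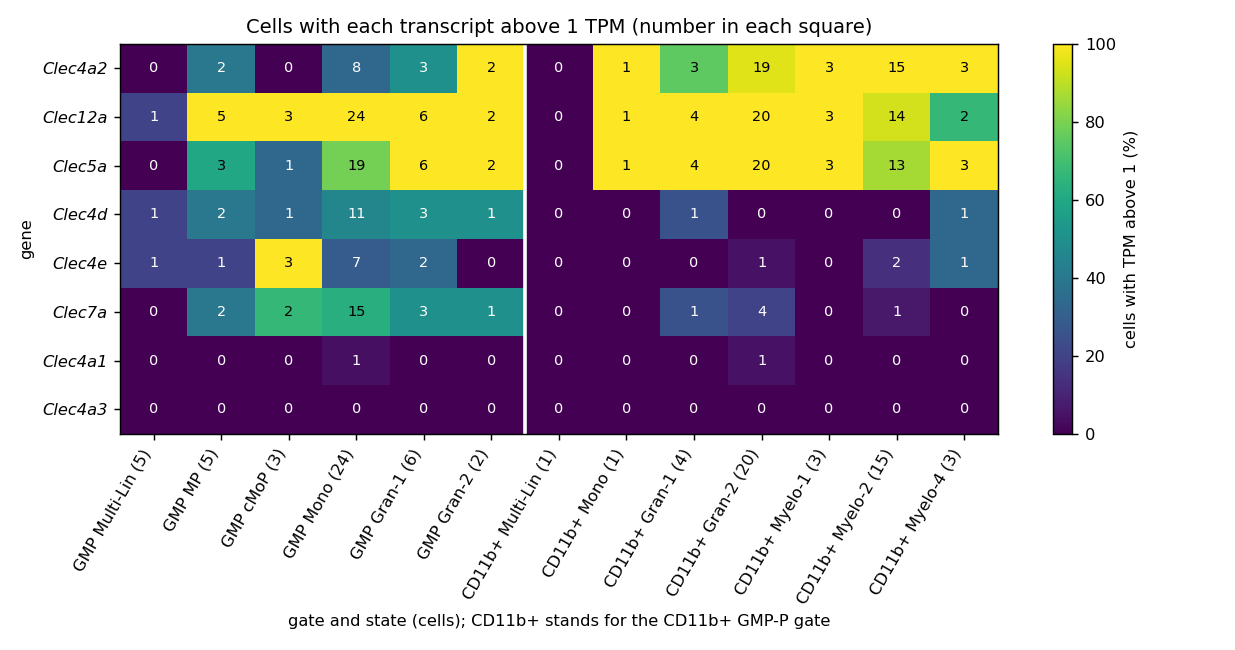
Each square gives the number of cells with a receptor above 1 TPM, coloured by the share of the cells of that gate and state (number of cells in parentheses). Clec4a2, Clec12a and Clec5a fill the granulocytic and Myelo columns of CD11b+ GMP-P, while Clec4e passes 1 TPM in 3 of 3 cMoP cells, 7 of 24 Mono cells and 2 of 6 Gran-1 cells of GMP.

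The Myelo states of CD11b+ GMP-P held all 3 of these receptors. In 15 Myelo-2 cells Clec4a2 had a median of 263 TPM (2.18 to 1043) and was above 0 in 15 of 15. Its mean log2 was 7.47 ± 2.28, against 6.88 ± 2.13 in Gran-2, a difference of 0.59, less than either SD, which was 4.02 with equal medians. Clec12a had a median of 431 TPM in Myelo-2 (0.38 to 2316) and Clec5a 102 TPM (0 to 708). The Myelo-2 minus Gran-2 differences were -2.19 for Clec12a and -1.13 for Clec5a, but with equal medians they turned to 1.16 and 1.63. Clec5a was inside the rule by mean TPM (-0.32) and with a pseudocount of 10 (-0.71). By the size rule 0 of 4 receptors compared were higher, against 2.62% of 7334 genes, and 2 of 4 lower, against 51.2%, a share near that of all genes, whose median was -1.04 (-0.32 with equal medians). Clec7a, the remaining receptor compared, differed by -0.79, and by -2.47 by mean TPM. The median number of genes detected was 2936 in Myelo-2 (1992 to 3257) and 4594 in Gran-2 (2629 to 5743), and the granulocyte genes summed to a median of 517982 TPM in Myelo-2 (367613 to 602717) and 218547 TPM in Gran-2 (96021 to 309311). Gene by gene they moved both ways, with 8 of 17 higher in Myelo-2, 7 lower and a median difference of -0.78. Too few cells had matching gene numbers for a comparison within them.

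States of at least 4 cells were ordered by mean log2. Clec4a2 stood at 7.47 in Myelo-2, 6.88 in Gran-2 and 6.16 in Gran-1 of CD11b+ GMP-P. It then stood at 3.94 in Gran-1, 2.08 in MP and 1.55 in Mono of GMP, and at 0 in Multi-Lin. No neighbours in that order differed by more than the larger of their SDs. In states of 2 or 3 cells, left out of the order, Clec4a2 stood at 8.09 in Myelo-1, 7.66 in Myelo-4, 7.32 in Gran-2 of GMP and 0.10 in cMoP. Clec12a ran from 11.25 ± 0.27 in Gran-1 of CD11b+ GMP-P through 10.30 ± 0.72 in Gran-1 of GMP, 10.11 in Gran-2, 9.45 in MP and 9.20 in Mono to 7.92 in Myelo-2 and 2.27 ± 3.87 in Multi-Lin. The first step and the last exceeded the larger SD, and the steps between did not. Clec5a ran from 7.26 in Gran-2 through 7.04 and 6.66 in Gran-1 of either gate, 6.13 in Myelo-2, 4.84 in Mono and 3.80 ± 3.44 in MP to 0.04 in Multi-Lin, where the last step alone exceeded the larger SD. Clec7a stood at 3.23 in Mono, 3.04 in MP and 2.60 in Gran-1 of GMP, and at 0.96 in Gran-2, 0.58 in Gran-1 and 0.18 in Myelo-2 of CD11b+ GMP-P, with no step beyond the SDs.

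Multi-Lin cells lacked most of these receptors. The 5 Multi-Lin cells of GMP were set against the other 40 GMP cells. Of 6 receptors compared 5 were lower, against 42.9% of 8218 genes, and 0 higher, against 9.33%. Clec12a alone passed the filter on detection in Multi-Lin itself (80% of cells). Clec4a2 and Clec7a (0%) and Clec5a, Clec4d and Clec4e (20% each) passed it only through the other GMP cells. Such a pass favours a lower call, so the count is a description and no support for a loss. The median of all genes was -0.78 and that of the 6 receptors -2.65. Clec12a in Multi-Lin was at 0, 0.51, 0.68, 0.80 and 577 TPM, and in the other 40 cells at a median of 706 TPM (57.9 to 2277), above 0 in 40 of 40. In 4 of the 5 Multi-Lin cells it lay under every other GMP cell, and the cell at 577 TPM lay inside their range. The means of log2 were 2.27 ± 3.87 and 9.43 ± 1.01, a difference of -7.16. It was -8.88 without that cell and -2.85 by mean TPM, and -6.37 relative to the median of all genes. Only 0.0243% of the genes compared had a lower difference.

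Clec5a was at 0 in 4 Multi-Lin cells and 0.15 TPM in the other, against a median of 59.8 TPM (0 to 356) in the 40 cells, a difference of -4.76. Clec4a2 and Clec7a were listed at 0 in all 5 Multi-Lin cells, so no fold is given. In the other GMP cells they were above 0 in 22 and 27 of 40, with mean log2 of 2.15 and 3.14. The exact 95% interval of the share above 0 ends at 52.2% for 0 of 5 cells, and that for Clec4a2 in the other cells (55%) runs from 38.5% to 70.7%, so these intervals overlap. Clec4e was at 7.79 TPM in 1 Multi-Lin cell and 0 in 4, a difference of -1.11 that turned to 0.63 in 5 and 5 cells matched on genes detected and to 0.31 against MP cells, and was inside the rule with a pseudocount of 10 (-0.67), with equal medians (-0.94), without cell 23 (-0.95) and against Mono cells (-0.80). Clec4d was at 102 TPM in 1 Multi-Lin cell and 0 in 4, a difference of -0.40, inside the size rule.

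Cell by cell, no Multi-Lin cell held more than 1 receptor above 1 TPM, while the other GMP cells held a median of 3 (2 to 5). The 1 Multi-Lin cell of CD11b+ GMP-P had all 8 receptors at 0, with Fcer1g at 839 TPM and Tyrobp at 2644 TPM. Multi-Lin cells of GMP had a median of 3634 genes detected (3069 to 4688) and the other GMP cells 5660 (2775 to 6611). Above 0 TPM, Clec12a was in 80% of the 5 Multi-Lin cells of GMP and Clec5a in 20%. Myelo-2 cells, with a median of 2936 genes, had Clec12a above 0 in 15 of 15 cells (0.38 to 2316 TPM) and Clec5a in 13 of 15. The part of genes detected in the receptor levels was not tested. Markers of basophils and mast cells moved with the Multi-Lin label: 10 genes summed to a median of 5608 TPM (962 to 13484) in the 5 cells, with 8 of 10 above 0, against 458 TPM (0.32 to 1613) in the other 40, with 7 of 10. Cma1 and Tpsb2 were at 0 in both. The monocyte genes summed to 987 TPM (14.8 to 1324) in Multi-Lin, with 10 of 14 above 0 and Irf8, Cx3cr1 and Fn1 among those at 0, against 8386 TPM (342 to 18599), with 12 of 14. Ly6c2, a large part of the latter sum, had a median of 1.68 TPM in Multi-Lin and 6917 TPM in the other 40. Gene by gene, 9 of the 11 monocyte genes compared were lower in Multi-Lin and 1 higher, with a median difference of -2.64. The granulocyte genes summed to a median of 15347 TPM (444 to 21749) in Multi-Lin and 53997 TPM (20199 to 191423) in the others, all 17 above 0 in both. By gene, 11 of the 17 were lower in Multi-Lin and 0 higher, with a median difference of -2.42. The part of these lists in the receptor levels was not tested.

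**Figure D3:**
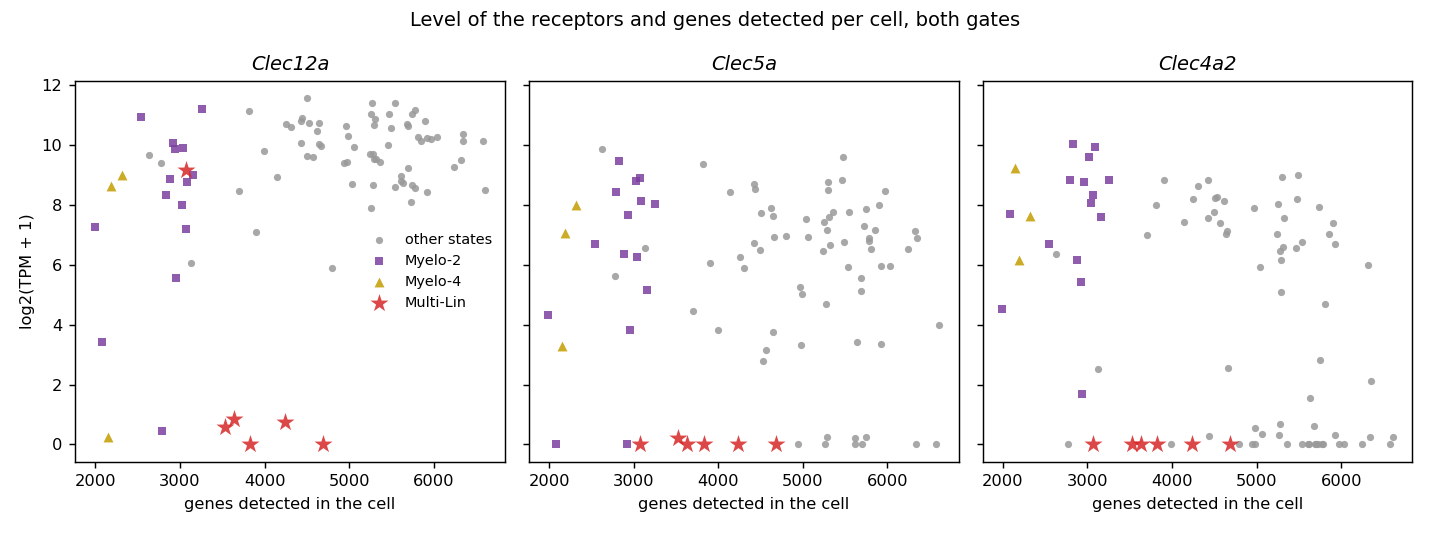
Each point is 1 of 92 cells, with genes detected on the x axis and log2(TPM + 1) of Clec12a, Clec5a or Clec4a2 on the y axis; symbols mark Multi-Lin, Myelo-2, Myelo-4 and other states. In 5 of the 6 Multi-Lin cells Clec12a is under 1 TPM, and most Myelo-2 cells hold all 3 receptors above 1 TPM. The part of genes detected in these levels was not tested.

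Receptors were often found in the same cell. In CD11b+ GMP-P, 42 of 47 cells had Clec4a2 and Clec12a above 1 TPM, 42 Clec4a2 and Clec5a, and 42 Clec12a and Clec5a. For each pair, 2 cells held the first alone, 2 the second alone and 1 neither. Each receptor was thus in nearly all cells, so high joint counts follow from the single counts. In GMP, Clec12a and Clec5a were together in 31 of 45 cells, 10 had Clec12a alone, and 0 cells had Clec5a without Clec12a. In 4 cells neither passed 1 TPM. Clec12a passed it in all the others, so most receptors would be found with it. Clec4a2 passed 1 TPM in 15 GMP cells, all with Clec12a and 13 with Clec5a. Clec4d and Clec4e, which lie side by side on the chromosome, were together in 7 GMP cells, apart in 12 and 7, and together in 0 CD11b+ GMP-P cells. Across the 45 GMP cells their log2 values had a Pearson r of 0.07, and those of Clec12a and Clec5a 0.47. Within the 24 Mono cells r was 0.34 for Clec4d and Clec4e and 0.03 for Clec12a and Clec5a. Across the 47 CD11b+ GMP-P cells r was 0.05 for Clec4a2 and Clec12a, 0.23 for Clec4a2 and Clec5a, and 0.40 for Clec12a and Clec5a.

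The genes whose log2 values were most like each receptor's across the cells of a gate are a description, since cells share library and state. In the 47 CD11b+ GMP-P cells, over 6115 genes, Clec12a was most like Mgst2 (Pearson r of 0.71), Ms4a3 (0.69) and Cox7c (0.68). Among the genes most like Clec5a were Cd63 (0.54) and Ms4a3 (0.52), and Clec4a2 was most like Anxa1 (0.49), Rac2 (0.46) and Chil3 (0.44). In the 45 GMP cells, over 7550 genes, Clec7a was most like Thap4 (0.63), Knop1 (0.59) and Apbb1ip (0.56). Clec4d was most like Pex14 (0.63), Rab12 (0.58) and Strbp (0.57), and Clec4e like Naip5 (0.58), Nek1 (0.57) and Dis3l (0.57). No receptor was among another's nearest genes.

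The adaptors of these receptors were at high levels in both gates. Fcer1g, the partner of Clec4d and Clec4e, was above 0 in 100% of cells of each gate, with mean log2 of 9.57 ± 1.45 in GMP and 10.35 ± 1.10 in CD11b+ GMP-P. Tyrobp, the partner of Clec5a, was likewise above 0 in 100%, at 9.51 ± 2.02 and 10.20 ± 1.60. Ptpn6 was at 6.81 ± 2.55 and 6.86 ± 3.02. Syk was lower, at 2.29 ± 2.67 and 2.49 ± 2.80. Card9, the scaffold after SYK, was at 2.89 ± 3.39 in GMP and 1.56 ± 2.67 in CD11b+ GMP-P, a difference of -1.32. Of 33 adaptor and signalling genes, 27 were compared between the gates. In CD11b+ GMP-P 2 were higher, against 2.72% of all genes, among them the kinase gene Fgr (1.12). The 4 lower, where 39% of all genes were, were Card9, the linker gene Lat2 (-1.78), Pik3cd (-1.32) and the kinase gene Btk (-1.20). The median of the 27 was 0.08. In 41 of 47 CD11b+ GMP-P cells neither Clec4d nor Clec4e passed 1 TPM, while Fcer1g was present in every cell.

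Between Mono and Gran-1 of GMP, 6 of 25 adaptor genes were higher in Mono, a share near the 21% of all genes, and 8 were lower, against 13.8%. Card9 was higher in Mono (4.09 ± 3.36 against 2.84 ± 4.27, a difference of 1.25), and Syk (-2.50) and Bcl10 (-3.33), the partner of CARD9, were lower. In Gran-2 of CD11b+ GMP-P against Mono of GMP, 3 of 26 were higher, against 5.42% of all genes, namely Hcst, which encodes the adaptor DAP10 (1.34), Rela (1.09) and Vav3 (1.08). The 4 lower, against 27.4% of all genes, were Lat2 (-2.17), Card9 (-2.07), Pik3cd (-1.60) and Btk (-1.09). In Myelo-2 against Gran-2, 3 of 26 were higher, against 2.62% of all genes, among them Fgr (1.98) and Lcp2 (1.10), and 9 lower, against 51.2%. Of the 9, Vav1, Prkcd, Lyn and Syk had differences above 0 with equal medians. Fcer1g (0.04) and Tyrobp (0.29) differed by less than their SDs. In Multi-Lin against the other GMP cells, 1 of 25 was higher, against 9.33% of all genes, namely Malt1, the protease partner of CARD9 (1.38). The 14 lower, against 42.9%, held Ptpn6 (-3.40) and Vav1 (-3.37). Tyrobp there was at 1.24, 22.8, 423, 513 and 733 TPM, and Fcer1g at 3.07, 256, 350, 886 and 937 TPM. All 5 Multi-Lin cells held both, with differences of -3.27 and -2.18 in mean log2, or -1.91 and -0.78 with equal medians. Card9 was listed at 0 in those 5 cells, and Syk differed by -0.19.

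Of 56 other genes of the C-type lectin fold, few were detected often enough to compare. Between the gates 8 were compared, with 2 higher in CD11b+ GMP-P, against 2.72% of all genes, and 2 lower, against 39%. The higher were Mgl2, a galactose-type lectin (1.09), and Olr1, the receptor LOX-1 for oxidised lipoprotein (1.02). The lower were Cd93 (-4.25), known from early progenitors, and Cd69 (-2.91), an activation antigen. Between Mono and Gran-1 of GMP, 4 of 11 were higher in Mono, against 21% of all genes, and 2 lower, against 13.8%. Among the higher were Cd69 (3.05), Cd93 (1.96) and Klrb1f (1.91). Olr1 (-2.39) and Cd72 (-1.32) were lower. In Gran-2 against Mono, 2 of 12 were higher, against 5.42% of all genes, Mgl2 (3.27) and Olr1 (2.21). There were 5 lower, against 27.4%, among them Cd93 (-4.28), Cd69 (-3.05), Thbd (-1.48) and Klrb1f (-1.37). In Myelo-2 against Gran-2, 0 of 10 were higher and 4 lower, against 2.62% and 51.2% of all genes. Of the 4, Mgl2 and Clec11a were listed at 0 in all 15 Myelo-2 cells, against means of 5.61 ± 4.02 and 1.13 ± 2.63 in Gran-2, and Cd93 (-2.41) and Olr1 (-2.33) were the others. In Multi-Lin, 2 of 9 were higher, against 9.33% of all genes, Cd69 (1.34) and Clec2i (1.19), and 5 lower, against 42.9%. Among the lower were Mgl2, which was listed at 0 in the 5 cells, Cd93 (-1.52, and -0.16 with equal medians), Thbd (-1.37) and Olr1 (-1.12). A few of these genes fall outside the rule for named genes and were named after their values were seen.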

How the data were processed

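Single cells of both gates were measured by RNA-seq. Per the submitters' processing notes, the authors used Bowtie2, RSEM and the mm9 genome; no version is stated. The deposited table holds log2 values, log2(TPM + 1), for 23956 genes in 92 cells, and TPM summed to 1000000 per cell without the Ly6g row. The second deposited file gives each cell's state. There were 0 columns of other samples, 0 pairs of identical cells and 0 cell numbers shared by the gates. All cells were kept, without a doublet caller. Of all values 80.9% were 0; of 9 widely expressed genes looked at, 6 (Actb and Gapdh among them) were at 0 in 0 of 92 cells, Fth1 in 1, Hprt in 10 and Ptprc in 15, so a 0 can be a missed transcript.

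Means and SDs of log2(TPM + 1), pseudocount 1, were taken per gate and state with Python 3.11.15, numpy 2.4.6, pandas 2.3.3 and scipy 1.17.1. On this scale the change of a low gene is understated. Each of 5 comparisons took the genes above 0 in no less than 25% of either group's cells. A pass through a single group favours a call in the direction of that group, so counts over such genes are descriptions. Intervals, also for 0 cells, are exact Clopper-Pearson at 95% and cover the counting of cells alone. As a check of the code, each gene's values were dealt out again over the cells and known shifts were added to some genes. The differences moved by those shifts. That outcome follows from the arithmetic of means, so it says nothing about the size of real differences. Alternatives were a pseudocount of 10, no filter, mean TPM, equal medians of genes found in 80% or more of cells, cells matched within 10% on genes detected, states left out, and 2 chosen after seeing the data (without Multi-Lin cell 23, without Gran-1 cell 25). The named genes were all 8 receptors, the 3 most like each, and up to 4 per list with the largest differences, with Fcer1g, Tyrobp, Syk, Card9 and Ptpn6 always; some genes these rules name are not reported here. The receptors and the lists were chosen with earlier results of these data known. No coordinates are given from mm9; promoter windows are on GRCm38.p6.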

Additional observations from a re-analysis of the deposited data

Results flagged for a closer look

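In each state of 4 to 10 cells, the highest and the lowest cell were set against the others of that state; a cell was listed where its gap to the nearest other cell, as a share of the range of log2 values, passed Dixon's 95% value. Of 21 sets looked at, 7 had such a cell. In 5 of the 7 the other cells were all at 0, so that any value above 0 passes; the rate of about 1 in 20 that chance gives for continuous values cannot be set against this count. Among the 5 Multi-Lin cells of GMP, Clec12a was 577 TPM in cell 23 and 0 to 0.80 TPM in the others. Clec4d was 102 TPM in Multi-Lin cell 35 and 0 in the others, and Clec5a was 0.15 TPM in the same cell and 0 in the others. Clec4e was 7.79 TPM in Multi-Lin cell 14 and 0 in the others. Among the 5 MP cells, Clec4e was 2 TPM in cell 30 and 0 in the others. Among the 4 Gran-1 cells of CD11b+ GMP-P, Clec4a2 was 0.60 TPM in cell 85 and 217 to 289 TPM in the others, and Clec4d was 41.4 TPM in cell 82 and 0 in the others. Each is a single cell, and no replicate of it exists.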

How the results depend on the processing

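Of 172 recomputed receptor differences, 139 kept their side of the size rule and moved by less than the cell SD, 29 did not, and another 4, which had passed the rule, changed sign. The 139 include every difference recomputed without the filter on detection. That setting cannot change a receptor's own difference, so those were the same in advance. The reversed values were Clec12a (1.16) and Clec5a (1.63) in Myelo-2 minus Gran-2 with equal medians, and Clec4e in Multi-Lin in matched cells (0.63) and against MP cells (0.31). The cause was not tested.

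For CD11b+ GMP-P minus GMP, the share of all genes higher was 1.26% with a pseudocount of 10, 0.914% without the filter, 8.47% by mean TPM, 10.4% with equal medians, 13.3% in matched cells and 5.14% without the Myelo states. The share lower was 16%, 12.8%, 30.2%, 23.8%, 12.8% and 17.8% in the same order. Receptors lower were 1 with a pseudocount of 10, 2 with equal medians and 3 in each of the other settings. Receptors higher were 3 with equal medians, in matched cells and without the Myelo states, and 2 in each of the other settings. For Mono minus Gran-1 the share higher was 6.72% with a pseudocount of 10, 7.61% without the filter and 33.1% by mean TPM; the share lower was 5.1%, 5.17% and, in matched cells, 21.4%. There 1 receptor, Clec7a, was higher in Mono in matched cells. For Gran-2 minus Mono the share higher was 1.71% with a pseudocount of 10, 1.92% without the filter, 13.1% by mean TPM, 8.21% with equal medians and 12.6% in matched cells; the share lower was 9.92% and 9.71% in the first 2, with 1 receptor lower at a pseudocount of 10. For Myelo-2 minus Gran-2 the share higher was 1.17% with a pseudocount of 10, 0.86% without the filter, 10.9% by mean TPM and 20.9% with equal medians, with 3 receptors higher. The share lower was 23.8%, 15.8% and, with equal medians, 30.5%, with 1 receptor lower at a pseudocount of 10 and 0 with equal medians. For Multi-Lin the share higher was 5.12% with a pseudocount of 10, 3.86% without the filter, 17.6% by mean TPM, 21.5% with equal medians and 27.2% in matched cells; the share lower was 19.3% and 14.9% in the first 2.

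Matched cells were not run for Myelo-2 against Gran-2, which left 2 and 2 cells. No paired analysis was possible because the gates share no cell number and no animal is named. The read depth is unknown, so a transcript missed cannot be told apart from one absent, and groups of 1 to 6 cells limit every statement on Multi-Lin, cMoP, MP and Gran-1.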

Other observations

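Some cells belong to no comparison above. The 1 Mono cell of CD11b+ GMP-P had Clec4a2 at 129 TPM, Clec12a at 1699 TPM and Clec5a at 12.6 TPM, with the other 5 receptors at 0. Its Clec4a2 is above that of every Mono cell of GMP, where the highest was 125 TPM. The 3 Myelo-1 cells had Clec4a2 at 189, 234 and 449 TPM, Clec12a at 134, 1069 and 1585 TPM, and Clec5a at 37.01, 65.4 and 416 TPM, with Clec4d, Clec4e and Clec7a at 0 in all 3. The 3 Myelo-4 cells, with 2147 to 2318 genes detected, had Clec4a2 at 70.7, 194 and 591 TPM and Clec5a at 8.79, 133 and 251 TPM. Clec12a in them was at 0.18, 397 and 505 TPM, and the cell at 0.18 TPM had the highest Clec4a2 of the 3.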
